A study of Mus musculus with 8 samples.

Results

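The cornified envelope genes encode the proteins that replace the plasma membrane of a keratinocyte in the outermost epidermis, together with the enzymes that crosslink and process them. The group was defined by a list of 34 symbols, of 49315 genes counted, and all 34 were found. It holds 5 envelope scaffold and related genes (Lor, Ivl, Ppl, Evpl, Crct1), 4 genes of fused S100 proteins (Flg, Flg2, Hrnr, Rptn), 3 transglutaminases (Tgm1, Tgm3, Tgm5), 4 genes of processing enzymes and cell junctions (Casp14, Asprv1, Cdsn, Nccrp1), 12 late cornified envelope genes of the Lce1 class and 6 of the Lce3 class. RNA was sequenced from back skin epidermis of mice at 22 months of age, in 5 libraries labelled Tgfa KO and 3 labelled WT. The product of Tgfa is transforming growth factor alpha, which activates the EGF receptor, and the series concerns its part in hair follicle function and hair loss with age. The sources used here give neither the structure of the Tgfa allele nor the strain, and do not say whether each library is a separate animal.

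Cornification is the last step of keratinocyte differentiation. Scaffold proteins such as involucrin, envoplakin and periplakin are laid down beneath the membrane, transglutaminases crosslink them to each other and then to loricrin and the late cornified envelope proteins, and filaggrin and its relatives bundle keratin filaments before proteases break them down. Most of the genes lie in the epidermal differentiation complex, a cluster whose members are switched on during keratinocyte differentiation, not all at the same stage. Here 25 of the 34 lay on chromosome 3 between 92080271 and 93399442 (GRCm38), a span of 1319 kb, and the other 9 (Ppl, Evpl, Tgm1, Tgm3, Tgm5, Casp14, Asprv1, Cdsn and Nccrp1) lay elsewhere. Asprv1, on chromosome 6 at 86628164 to 86629710, lay 352 kb from the end of Tgfa.

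Sequences just before the gene start are shown because the Lce1 genes differed from each other in their levels across libraries, with Lce1m least like the rest, and their promoters are not all alike. RefSeq windows (GRCm38.p6, 250 bases before to 50 after the gene start) were at hand for 29 of the 34 genes, not for Crct1, Evpl, Lce1f, Nccrp1 and Ppl. The 120 bases before the start follow for 4 Lce1 genes and 1 Lce3 gene, 5′ to 3′ on the strand of the gene. Capitals mark ACTGTCTCAC and the TATA-like run ATAAAAGG, each searched on the strand of the gene. They came from Lce1a2 chr3:92670316-92670435 (minus strand), Lce1i chr3:92778900-92779019 (minus strand), Lce1l chr3:92851287-92851406 (minus strand), Lce1m chr3:93019062-93019181 (minus strand) and Lce3d chr3:92957270-92957389 (plus strand).
Lce1a2: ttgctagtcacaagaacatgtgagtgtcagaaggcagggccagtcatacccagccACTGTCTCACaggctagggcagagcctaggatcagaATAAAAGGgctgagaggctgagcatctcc
Lce1i: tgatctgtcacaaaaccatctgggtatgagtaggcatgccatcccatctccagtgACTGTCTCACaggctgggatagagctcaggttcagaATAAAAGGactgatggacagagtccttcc
Lce1l: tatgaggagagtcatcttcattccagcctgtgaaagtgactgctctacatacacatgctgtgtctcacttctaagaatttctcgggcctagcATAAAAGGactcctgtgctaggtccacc
Lce1m: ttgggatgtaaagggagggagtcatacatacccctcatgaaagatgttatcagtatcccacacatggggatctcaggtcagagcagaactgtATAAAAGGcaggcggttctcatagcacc
Lce3d: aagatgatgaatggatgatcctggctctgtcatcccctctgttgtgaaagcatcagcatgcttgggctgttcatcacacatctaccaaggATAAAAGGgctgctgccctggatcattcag

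The run ATAAAAGG was found in 9 of 11 Lce1 windows and 3 of 6 Lce3 windows and in none of the other member windows, against 1.15% of all 32851 windows in the table. It began 28 to 30 bases before the gene start. No other TATA-like run was searched, so its absence from other member windows does not mean that they lack one. The Lor, Rptn and Tgm3 sequences below hold tataaa. The share of all windows is given for scale and is not a test. The run ACTGTCTCAC was found in 8 of 11 Lce1 windows (Lce1a1, Lce1a2, Lce1b, Lce1d, Lce1e, Lce1g, Lce1h and Lce1i) and in 0.103% of all windows, and was not found in those of Lce1c, Lce1l and Lce1m. It was picked from the data, as the run of 10 bases in the most Lce1 windows among those in no Lce3 window. Aligned over the full window of 300 bases, 9 Lce1 windows without Lce1l and Lce1m were 63.3% to 86.0% identical (median 69.7% of 36 pairs). Lce1m was 52.7% to 55.2% identical to the other Lce1 windows and Lce1l 51.0% to 56.2%, which is within the 49.1% to 57.7% between those 9 Lce1 windows and the Lce3 windows.

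A second set holds a scaffold gene and a fused S100 gene with an AP-1-like motif, and the 2 transglutaminases with the highest fold change. Capitals mark TGANTCA, a loose form of the AP-1 motif that allows any base at its centre, searched on both strands. They came from Lor chr3:92083143-92083262 (minus strand), Rptn chr3:93393579-93393698 (plus strand), Tgm3 chr2:130012220-130012339 (plus strand) and Tgm5 chr2:121085842-121085961 (minus strand).
Lor: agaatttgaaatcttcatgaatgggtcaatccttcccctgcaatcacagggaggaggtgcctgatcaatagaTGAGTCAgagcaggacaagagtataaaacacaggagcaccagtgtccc
Rptn: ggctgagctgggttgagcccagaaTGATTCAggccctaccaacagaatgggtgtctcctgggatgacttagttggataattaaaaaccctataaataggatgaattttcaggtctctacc
Tgm3: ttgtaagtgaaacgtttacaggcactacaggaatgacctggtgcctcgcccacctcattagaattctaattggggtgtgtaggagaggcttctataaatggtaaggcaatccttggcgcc
Tgm5: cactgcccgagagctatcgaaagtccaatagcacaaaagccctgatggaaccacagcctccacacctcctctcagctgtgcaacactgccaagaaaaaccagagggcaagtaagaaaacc
The motif was found in the windows of Lor, Ivl, Flg, Flg2 and Rptn, 5 of 29, against 7.81% of all windows. The matched bases were TGAGTCA in Lor, TGACTCA in Ivl, TGAATCA in Flg and Flg2 and TGATTCA in Rptn. The windows of Tgm1, Tgm3 and Tgm5 held no match, nor did any Lce window.

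Library quality was uneven and did not follow genotype. Total counts ranged from 5313552 to 17417500 in KO libraries, against 12968728 to 18292303 in WT libraries. Tgfa had 132, 34.4, 43.3, 36.2 and 70.1 CPM (counts normalised to depth with TMM factors) in KO replicates 1 to 5, against 92.5, 85.1 and 112 CPM in WT replicates 1 to 3. No KO library lacked Tgfa reads, and KO replicates 2 to 5 were below every WT library. The log2 fold change of Tgfa was -0.61 (standard error 0.43, edgeR adjusted p = 0.899), which did not pass an adjusted p under 0.05. With libraries weighted by how well each follows the fitted values, it was -0.91 (limma voom adjusted p = 0.0483). The library labelled KO replicate 1 was at 137% of the WT mean, which goes against its label. Malat1, a nuclear RNA, took 4.88% of counts in that library and 6.61% in WT replicate 3, against 1.34% to 1.84% elsewhere. KO replicate 2 had the fewest counts but a count in 42326 genes, where the remaining KO libraries had 23179 to 24465 such genes and WT libraries 24293 to 33963. In KO replicate 2 the repeat-rich gene Gm10800 took 12.4% of counts, against at most 0.962% elsewhere, and olfactory and vomeronasal receptor genes took 3564 CPM, against 33.2 to 588 elsewhere. Basal layer genes (Krt5, Krt14, Col17a1 and 5 more) summed to 7501 CPM in the library labelled KO replicate 1, 5835 in KO replicate 2 and 4439.9 in WT replicate 3, against 11458 to 14412 CPM in the other libraries. Krt1 and Krt10, defining keratins of the suprabasal epidermis, were detected in every library, together at 5315 to 16438 CPM in KO and 4500.3 to 9812 CPM in WT. In bulk RNA, fewer cornifying cells and less RNA per cell cannot be told apart.

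Of the 34 genes, 32 passed the filter on low counts and were tested. None passed the threshold of an adjusted p under 0.05 (edgeR quasi-likelihood test, Benjamini-Hochberg, members' adjusted p 0.563 to 0.978), where 1 of all 19239 genes tested (0.0052%) did. At an unadjusted p under 0.05 there were 3 members, 9.38% of those tested against 6.28% of all genes: Tgm3 and Tgm5 with higher and Lce1m with lower values in KO. The CPM of all 5 KO libraries lay above all WT libraries for Tgm5 and below them for Lce1m, 6.25% of members against 5.15% of all genes (3.4% above and 1.75% below). Library weights gave 2 calls among members, Tgm3 and Lce1m, in a fit that called 6.46% of all genes. DESeq2 called no member and 0.804% of the 17042 genes to which it gave an adjusted p. It gave none to some members, Crct1 and Rptn among them. Log2 fold changes were positive for 13 members and negative for 19, where 38.1% of all genes were negative, with a median of -0.28 against 0.16 over all genes. The median standard error (SE) was 0.75 for members and 0.44 for all genes, so a difference had to be larger here than for most genes to pass.

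**Figure D1:**
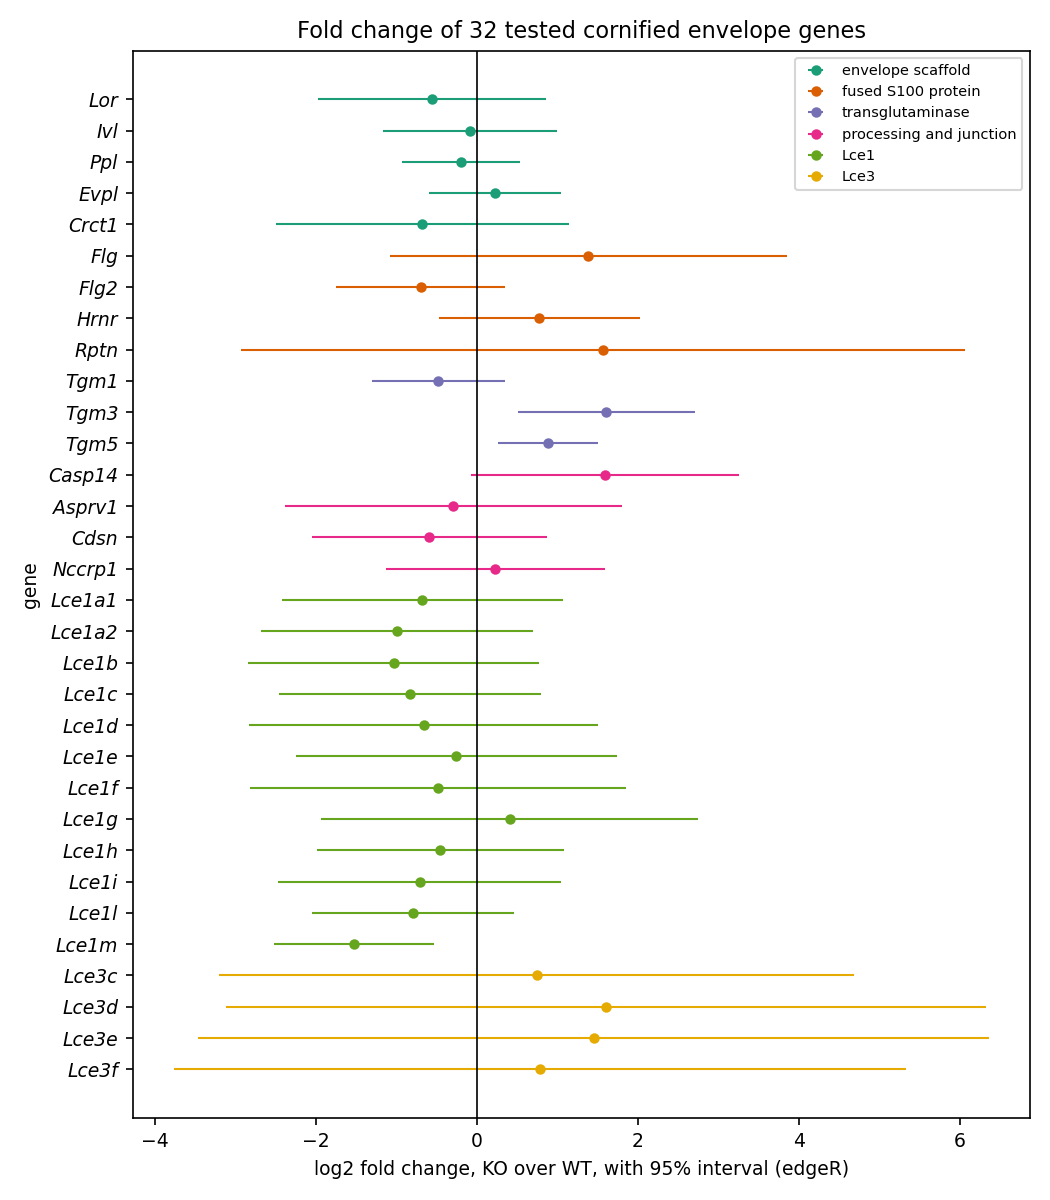
Log2 fold change of KO over WT (x axis) with its 95% interval from edgeR for the 32 tested genes (y axis), coloured by role. The intervals of Tgm3 and Tgm5 lie above 0 and that of Lce1m below 0, and those of Rptn and the Lce3 genes are the widest.

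Most of the spread lay between libraries of the same genotype. The library labelled KO replicate 1 had the highest CPM for 20 of the 32 tested genes, WT replicate 3 for 7, KO replicate 5 for 3 and WT replicate 1 for 2. KO replicate 2, the library with the most Gm10800 and receptor gene counts, had the lowest value for 22, and the part of its quality in this was not tested. Together the 34 genes took 1.86%, 0.308%, 0.501%, 0.562% and 1.37% of all counts in KO replicates 1 to 5, against 0.950%, 0.766% and 1.58% in WT replicates 1 to 3. KO replicates 2 to 4 were thus below every WT library, and KO replicates 1 and 5 within or above the WT range. Per 100 CPM of Krt1 plus Krt10, the suprabasal keratins, the members summed to 146, 53.4, 34.03, 42.4 and 96.3 CPM in KO, against 99.1, 97.3 and 355 CPM in WT. The 2 libraries with the most Malat1 were also the 2 with the highest median level of these genes, and the part of RNA quality in this was not tested.

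**Figure D2:**
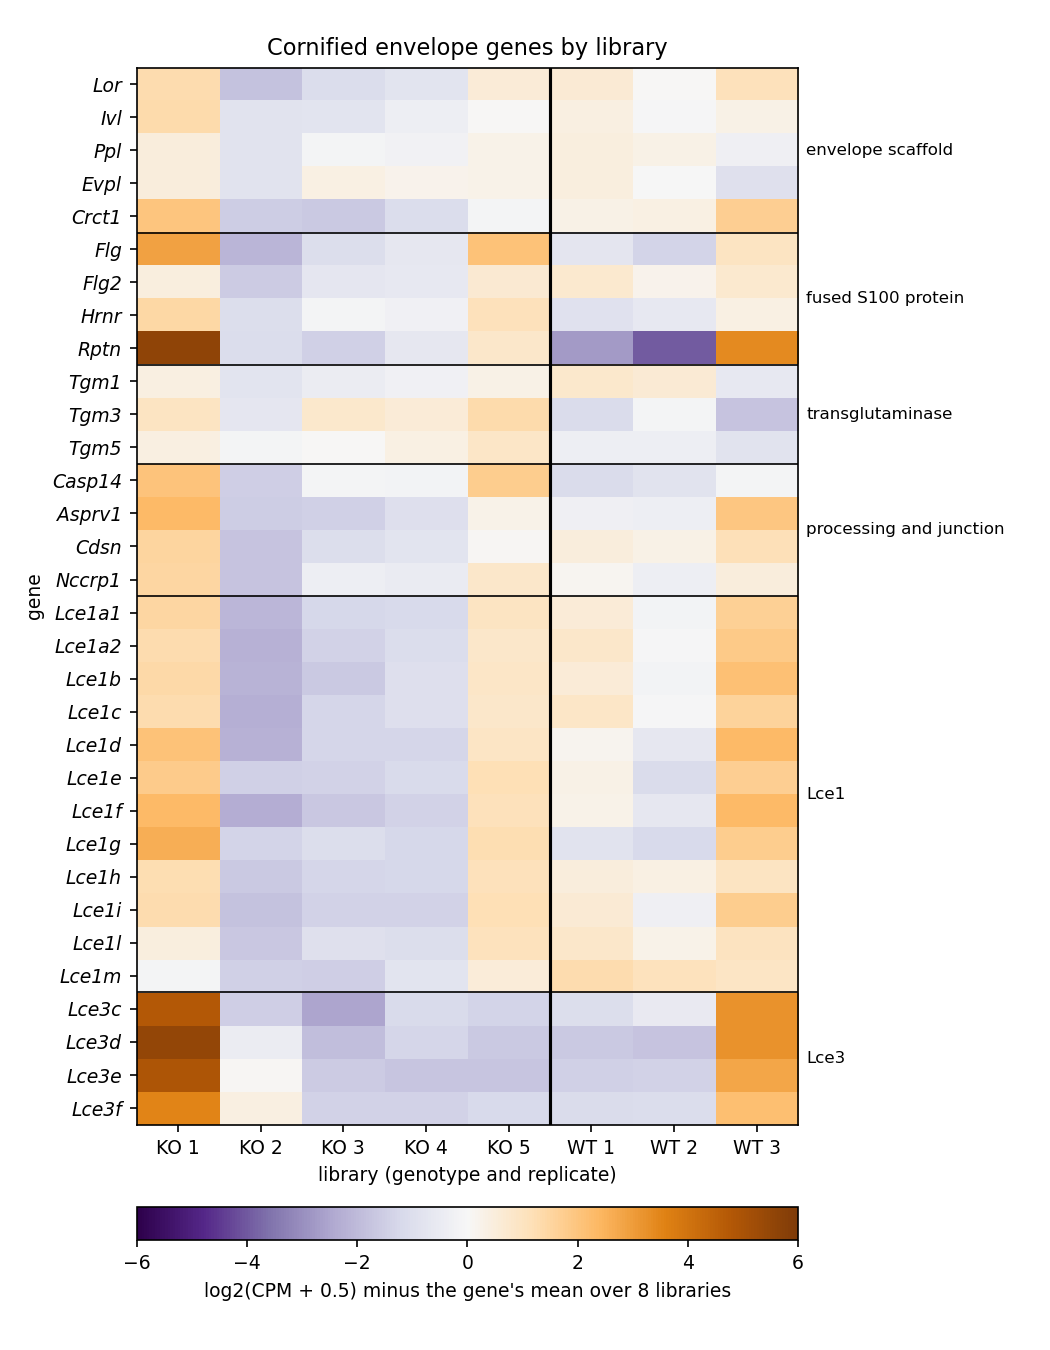
Log2(CPM + 0.5) of each tested gene minus its own mean over 8 libraries (colour), with genes in rows by role and libraries in columns, KO left of WT. The library labelled KO replicate 1 and WT replicate 3 are high for most genes, with median deviations of 1.45 and 1.36, and KO replicates 2 to 4 are low, at -1.52, -1.26 and -0.98. These medians were taken on edgeR log2 CPM with a prior count of 2 and may differ from those of the plotted values.

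Envelope scaffold genes overlapped between the genotypes. In what follows, KO values are given for replicates 1 to 5 and WT values for replicates 1 to 3, and the first KO value is that of the library labelled KO replicate 1. Lor, for loricrin, the main protein of the mature envelope, had 1096, 125, 211, 261 and 676 CPM in KO, against 699, 452 and 941 CPM in WT. The 3 lowest libraries were KO replicates 2 to 4, while KO replicates 1 and 5 lay within or above the WT range. Its log2 fold change was -0.56 (SE 0.64, edgeR adjusted p = 0.933). Crct1, a cysteine-rich gene of the same chromosome 3 cluster (93014205 to 93015687), had 926, 81.5, 76.2, 111 and 219 CPM in KO, against 291, 297 and 774 CPM in WT. All KO libraries but the first were below every WT library, and the first was above them all. For Crct1 the log2 value was -0.68 (SE 0.82, edgeR adjusted p = 0.935), and of 0.21 among libraries whose names end in br.

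Ivl, for involucrin, an early scaffold protein, averaged 144 ± 109.6 CPM in KO (SD, n = 5) and 153 ± 24.1 CPM in WT (n = 3), with its highest value, 335 CPM, in the library labelled KO replicate 1. Ppl and Evpl, for the plakin proteins periplakin and envoplakin that tie the envelope to desmosomes and keratin filaments, varied least of the scaffold genes. Ppl averaged 789 ± 255 CPM in KO and 909 ± 231 CPM in WT, a log2 fold change of -0.20 (95% interval -0.94 to 0.53). Evpl averaged 349 ± 102 CPM in KO and 299 ± 127 CPM in WT, a log2 fold change of 0.22 (95% interval -0.60 to 1.05). The highest library was 2.47 times the lowest for Ppl and 2.67 times for Evpl, against 8.78 times for Lor and 12.2 times for Crct1.

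The fused S100 genes did not share a direction. Flg2, for filaggrin-2, a relative of filaggrin, had 2043, 508, 952, 1011 and 2444 CPM in KO, against 2503, 1754 and 2530.5 CPM in WT. KO replicates 2 to 4 were below every WT library and the other KO libraries were among the WT values. For Flg2 the fold change was -0.70 on the log2 scale (SE 0.47, edgeR adjusted p = 0.884). Flg, for filaggrin, whose breakdown products keep the horny layer moist, had 3935, 122, 265, 345 and 2262 CPM in KO, against 322, 210.3 and 1062 CPM in WT. The library labelled KO replicate 1 and KO replicate 5 were above every WT library, whereas KO replicates 2 to 4 were at 122 to 345 CPM. The fold change of Flg was 1.38 on the log2 scale (SE 1.10, edgeR adjusted p = 0.909), and 0.48 without the library labelled KO replicate 1. Hrnr, for hornerin, another filaggrin-like protein, had 1465, 278, 502, 459 and 1172 CPM in KO, against 299, 364 and 698 CPM in WT. The order of its KO libraries was close to that of Flg, and its log2 fold change was 0.77 (SE 0.56, edgeR adjusted p = 0.9).

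Set against Lor, Flg was higher in most KO libraries than in WT. The ratio of Flg to Lor in counts per kb was 0.339, 0.0926, 0.118, 0.125 and 0.316 in KO, against 0.0435, 0.0439 and 0.107 in WT. KO replicate 2 was below WT replicate 3, and the other KO libraries were above all WT libraries. This ratio was computed after the values were seen and has no test. Rptn, for repetin, another fused S100 protein, had 1499, 14.4, 11, 19.3 and 53.0 CPM in KO, against 4.14, 1.46 and 319 CPM in WT. Its 2 highest libraries were the one labelled KO replicate 1 and WT replicate 3, and the highest was 1030.3 times the lowest. Apart from those, the remaining KO libraries, at 11 to 53.0 CPM, were above the remaining WT libraries, at 1.46 to 4.14 CPM. The log2 fold change of Rptn was 1.57 (SE 2.02, edgeR adjusted p = 0.935), and it was -2.15 without the library labelled KO replicate 1 and 6.82 without WT replicate 3. Exons of Rptn overlap those of Gm37857 on the same strand, so its reads are uncertain.

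Tgm3 and Tgm5 had the smallest p-values among members with a positive fold change, and Tgm1 had a negative one. Tgm3 (chromosome 2, 130012349 to 130050399), for a soluble transglutaminase of the upper epidermis and the hair follicle, had 50.1, 15.6, 44.2, 38.3 and 65.0 CPM in KO, against 11.4, 23.5 and 7.19 CPM in WT. All KO libraries but replicate 2 were above every WT library. KO over WT gave a log2 value of 1.61 (SE 0.49, edgeR adjusted p = 0.58), and 1.29 to 2.00 with any 1 library left out. With libraries weighted by how well each follows the fitted values, Tgm3 rose by 1.45 on the log2 scale (limma voom adjusted p = 0.0226), in a fit that called 3.39% of all genes higher. That fit gave weights of 0.28 and 0.37 to the library labelled KO replicate 1 and KO replicate 2 and 0.34 to WT replicate 3, against 1.47 to 2.26 for the others.

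Tgm5 (chromosome 2, 121046111 to 121085841), for an epidermal transglutaminase whose loss in humans causes skin peeling, had 28.2, 19.3, 21.6, 27.7 and 39.7 CPM in KO, against 16.4, 16.3 and 11.8 CPM in WT. Every KO library, KO replicate 2 included, was above every WT library. Its fold change on the log2 scale was 0.88 (SE 0.28, edgeR adjusted p = 0.58), and 0.79 with library weights (limma voom adjusted p = 0.0527). Tgm1 (chromosome 14, 55700009 to 55713492), for the membrane-bound transglutaminase that is the main crosslinking enzyme of the envelope, had 136, 59.9, 75.5, 88.1 and 128 CPM in KO, against 180.4, 159.8 and 68.9 CPM in WT. WT replicates 1 and 2 were the 2 highest libraries and WT replicate 3 was the second lowest. The log2 fold change of Tgm1 was -0.48 (SE 0.37, edgeR adjusted p = 0.905). Without the library labelled KO replicate 1, KO replicate 2 and WT replicate 3 together, Tgm1 fell by 0.83 on the log2 scale (edgeR adjusted p = 0.0471), in a fit that called 5.32% of all genes lower.

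Tgm3 made up 23.3%, 16.5%, 31.3%, 24.9% and 27.9% of the summed CPM of the 3 genes in KO, against 5.48%, 11.8% and 8.18% in WT. The 2 genotypes did not overlap in this share, which was computed after the values were seen and has no test. Per length, Tgm1 was the most abundant of the 3, at 32.5 CPM per kb in KO and 45.4 CPM per kb in WT, against 10.3 CPM per kb in KO and 3.39 in WT for Tgm3, and 8.65 in KO and 4.71 in WT for Tgm5. Because Tgm3 is also made in the hair follicle, a list of inner root sheath and hair shaft keratins (Krt71, Krt25, Krt27 and 9 more) is set beside it. This list summed to 10.2, 59.7, 15.3, 33.2 and 397 CPM in KO, against 24.6, 25.1 and 14.6 CPM in WT. In the library labelled KO replicate 1 and KO replicate 3 the list was within or below the WT range while Tgm3 was above it, and in KO replicate 2 the list was above the WT range while Tgm3 was within it. In KO replicates 4 and 5 both were above the WT range, and the part of follicle cells in Tgm3 was not tested.

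**Figure D3:**
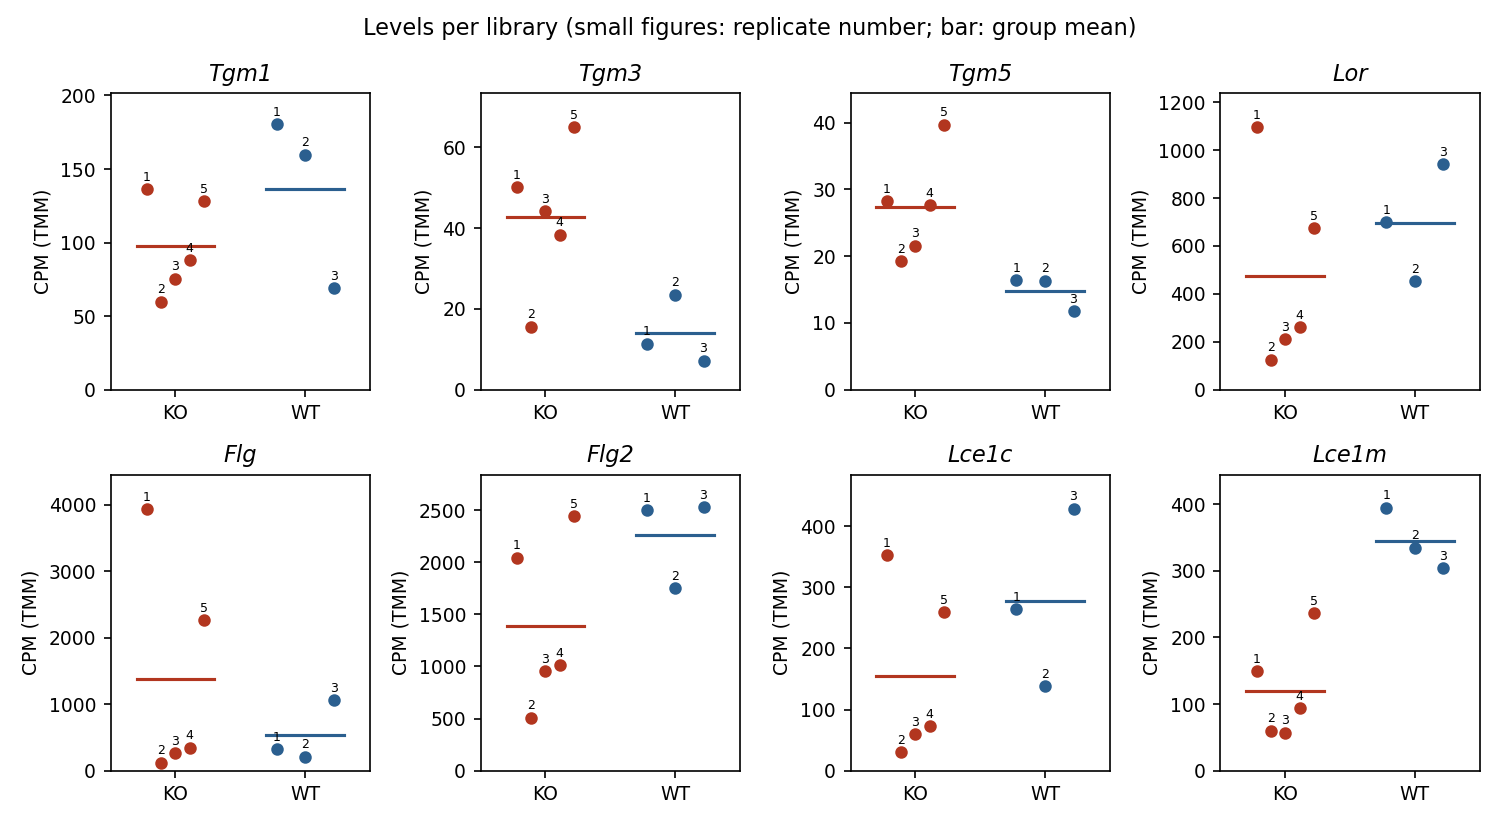
CPM (y axes, linear from 0) of 8 genes in KO and WT libraries, with a point per library, its replicate number above it and a bar at the group mean. The genotypes do not overlap for Tgm5, at 19.3 CPM and above in KO and 16.4 CPM and below in WT, or for Lce1m.

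Processing and junction genes were led by Asprv1 and Cdsn. Asprv1, for the skin aspartic protease that acts on filaggrin, had the highest level per length of all 34 genes, at 785 CPM per kb in KO and 963 CPM per kb in WT. It had 4093, 287, 304, 415 and 971 CPM in KO, against 672, 651 and 3146 CPM in WT. The library labelled KO replicate 1 and WT replicate 3 stood far above the rest. On the log2 scale the fold change was -0.30 (SE 0.94, edgeR adjusted p = 0.964), and it was -1.60 without the first and 0.87 without the second of these libraries. Cdsn, for corneodesmosin, which holds corneocytes together, had 2643, 263, 455, 536 and 945 CPM in KO, against 1256, 1109 and 2018 CPM in WT. As with Crct1, all KO libraries but the one labelled KO replicate 1 were below every WT library. For Cdsn the log2 value was -0.59 (SE 0.66, edgeR adjusted p = 0.933), and of 0.04 among libraries whose names end in br.

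Casp14, for the caspase that takes part in filaggrin breakdown, had 1003, 85.4, 224, 216 and 821 CPM in KO, against 113, 136 and 219.9 CPM in WT. Like Flg, it was highest in the library labelled KO replicate 1 and in KO replicate 5. KO replicate 3 was also above the WT libraries, and KO replicate 2 was below them all. KO over WT gave a log2 value of 1.59 (SE 0.75, edgeR adjusted p = 0.813), positive under every alternative run, from 1.07 to 1.91. Nccrp1, whose product belongs to the F-box associated family, averaged 223 ± 177 CPM in KO (SD, n = 5) and 190.1 ± 54.9 CPM in WT (n = 3), a log2 fold change of 0.23 (SE 0.61).

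Lce1 genes encode late cornified envelope proteins added to the inside of the envelope at the end of its assembly. Their log2 fold changes were negative in 11 of 12 cases, with a median of -0.70, where 38.1% of all genes were negative. Most of these genes varied together across libraries, so the 11 are not independent. None passed the threshold in edgeR. Lce1m (chromosome 3, 93017810 to 93019060, minus strand) had 149, 60.3, 57.0, 93.5 and 237 CPM in KO, against 395, 335 and 304 CPM in WT. Every KO library, the one labelled KO replicate 1 included, was below every WT library. Lce1m averaged 119 ± 75.3 CPM in KO (SD, n = 5) and 344 ± 46.1 CPM in WT (n = 3). The log2 fold change was -1.53 (SE 0.45, edgeR adjusted p = 0.563), and between -1.94 and -1.35 with any 1 library left out. With library weights Lce1m fell by 1.81 on the log2 scale (limma voom adjusted p = 0.0191), where 3.07% of all genes were called lower. The genotype groups are unevenly split by the ending of the library name, with br for all WT libraries and KO replicates 1 and 2 and bl for KO replicates 3 to 5, and among libraries ending in br its log2 fold change was -1.74.

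The other Lce1 genes varied together across libraries, Lce1g least closely. Lce1a1, among the most abundant per length, had 407, 34.04, 60.7, 62.9 and 280.0 CPM in KO, against 217, 128 and 468 CPM in WT. Lce1c had 353, 29.9, 59.6, 73.0 and 259 CPM in KO, against 264, 139 and 429 CPM in WT. For both, KO replicates 2 to 4 were below every WT library, and KO replicates 1 and 5 lay among the WT values. Leaving aside Lce1l and Lce1m, all 10 remaining genes had their lowest value in KO replicate 2, and their highest in WT replicate 3 (6 genes) or in the library labelled KO replicate 1 (4 genes). Of these 10, 9 had negative log2 fold changes and Lce1g a positive one, 0.41 (SE 1.05), with a median of -0.67 and SEs of 0.69 to 1.05. Lce1b and Lce1a2 had the most negative values, -1.04 (SE 0.81) and -0.99 (SE 0.76). Lce1c was at -0.84, and Lce1a1, Lce1d, Lce1e, Lce1f, Lce1h and Lce1i lay between -0.71 and -0.26. Without WT replicate 3, Lce1d, Lce1e and Lce1f were at 0.68, 0.74 and 0.81, and Lce1g was at -0.70 without the library labelled KO replicate 1.

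Lce1m followed this shared pattern least. As a measure of likeness, the log2 difference between each gene and the mean of the other Lce1 genes except Lce1l and Lce1m was taken in each library. Its SD over the 8 libraries was 1.05 for Lce1m, 0.80 for Lce1g and 0.67 for Lce1l, against 0.18 (Lce1a1) to 0.54 (Lce1h) for the rest. The split was not set by this measure, since Lce1g stayed in the mean with a higher SD than Lce1l. Leaving Lce1l and Lce1m out of the mean can itself make them look less like it, so the SDs are a description and not a test. Compared with its own mean difference, Lce1m stood at -1.81 log2 units in the library labelled KO replicate 1 and at -0.91 in WT replicate 3, the libraries where the other Lce1 genes were highest. Lce1l stood at -1.23 and -0.80 log2 units in the same libraries. Lce1l had 48.3, 10.6, 18.2, 17.0 and 73.6 CPM in KO, against 62.5, 42.3 and 70.97 CPM in WT, at a log2 value of -0.80 (SE 0.56, edgeR adjusted p = 0.898). Lce1m made up 6.80% to 27.3% of the summed Lce1 CPM in KO libraries, against 10.7% to 35.2% in WT libraries, which overlap. Transcripts of Lce1 genes shared no window of 150 bases with any other gene. Shorter shared stretches were not searched, so this does not show that reads of Lce1 genes can be told apart. Lce1l and Lce1m were also the 2 whose promoter windows were least like those of the other Lce1 genes, whereas Lce1g, with an SD between theirs, held both marked runs. Lce1c lacked ACTGTCTCAC, and its SD was 0.37. Whether promoter sequence bears on these levels was not tested.

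**Figure D4:**
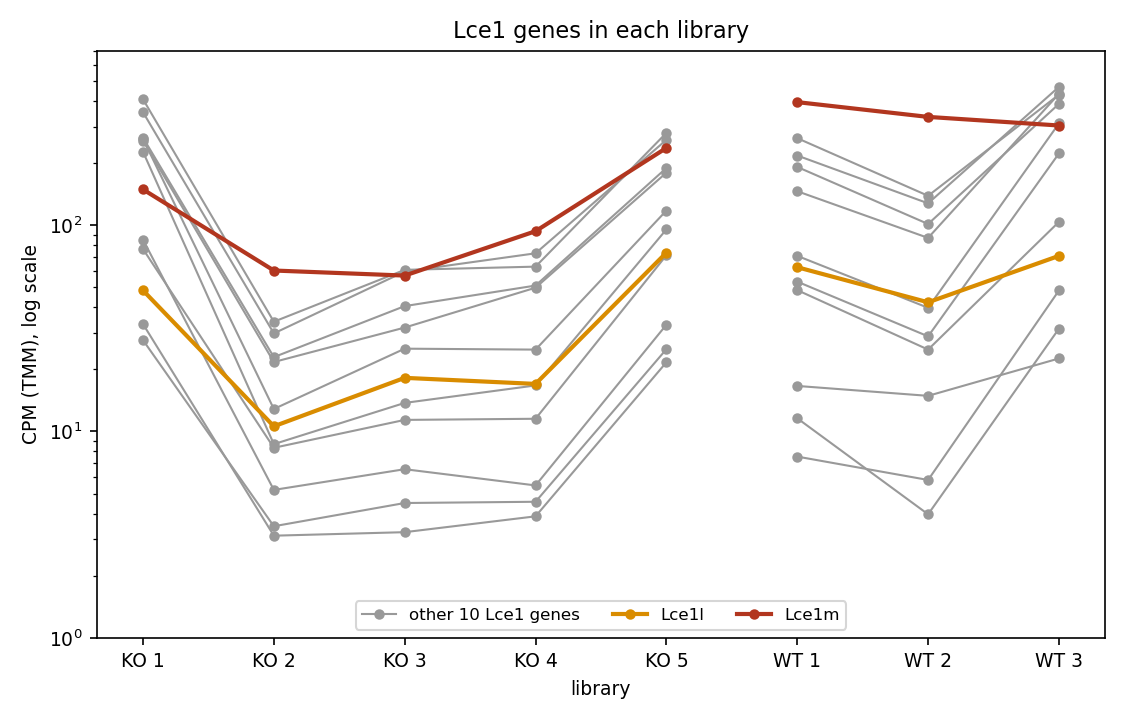
CPM of the 12 Lce1 genes (y axis, log scale) in each library (x axis), with KO left of WT and lines joining the values of a gene; replicates have no order. Lce1m (red) lies at 57.0 to 237 CPM in KO and 304 to 395 CPM in WT, while the 10 genes in grey dip together in KO replicates 2 to 4.

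Set against suprabasal keratins, the summed Lce1 CPM per 100 CPM of Krt1 plus Krt10 was 13.3, 4.16, 2.35, 3.36 and 11.6 in KO, against 15.1, 12.02 and 62.9 in WT. Only the library labelled KO replicate 1 reached the WT range, and KO replicate 5, at 11.6, was just below the lowest WT value, 12.02. This ratio has no test. It also depends on the keratins, since Krt1 plus Krt10 averaged 12375 CPM in KO and 7404 CPM in WT. Krt1 itself averaged 4081 ± 1437 CPM in KO (SD, n = 5) and 1501 ± 982 CPM in WT (n = 3), a log2 fold change of 1.44 (edgeR adjusted p = 0.713).

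Lce3 genes, whose human counterparts are known from damaged and psoriatic skin, were seen mainly in 2 libraries. Together the 6 genes had 5810, 39, 18, 63 and 44 counts in KO, against 72, 83 and 1486 counts in WT. The library labelled KO replicate 1 and WT replicate 3 held most of them. Lce3c, the most abundant, had 213, 2.26, 0.875, 3.02 and 2.57 CPM in KO, against 3.41, 4.83 and 71.8 CPM in WT. Lce3d had 117, 1.39, 0.188, 0.571 and 0.348 CPM in KO, against 0.336, 0.265 and 23.4 CPM in WT. Apart from the 2 high libraries, every KO value of Lce3c was below every WT value, and Lce3d overlapped. In KO replicate 2, Lce3 genes had 11.5 counts per kb and olfactory and vomeronasal receptor genes (1700 genes of sensory neurons of the nose) had 4.58.

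The log2 fold change of Lce3c was 0.74 (SE 1.77, edgeR adjusted p = 0.954), and it ran from -3.62 without the library labelled KO replicate 1 to 3.43 without WT replicate 3. Those of Lce3d, Lce3e and Lce3f were 1.60, 1.45 and 0.78, with SEs of 2.04 to 2.2, and these 3 genes did not pass the filter on low counts once the library labelled KO replicate 1, or KO replicate 2, was left out. Lce3a and Lce3b were not tested. Lce3a had at most 2.28 CPM in KO and 1.49 CPM in WT, and Lce3b had 31.4 CPM in the library labelled KO replicate 1, at most 0.521 CPM in the other KO libraries and at most 2.97 CPM in WT. Of the 150-base windows in their transcripts, 15.1% of Lce3c, 3.22% of Lce3d, 29.5% of Lce3e and 36.8% of Lce3f occur in another of these 4 genes, so their separate values are uncertain.

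The weight of single libraries can be read from fits that leave them out. Without the library labelled KO replicate 1, 23 of 29 members had negative log2 fold changes, with a median of -0.97 (0.17 over all genes). Without WT replicate 3, 16 of 32 were negative, with a median of 0.21 (0.18 over all genes). Without both, a fit chosen after the values were seen, 21 of 29 were negative, with a median of -0.56 (0.16 over all genes). In the remaining KO and WT libraries, Cdsn, Crct1, Lce1m, Lce3c, Ppl and Tgm1 did not overlap and were below WT, 18.8% of tested members against 13.5% of all genes. Rptn and Tgm5 did not overlap and were above WT, 6.25% against 13.4% of all genes. Among libraries ending in br, 12 of 32 members were negative, with a median of 0.26 (0.25 over all genes). The direction of the group as a whole thus rested on which libraries were used. Tgm3 and Tgm5 stayed positive and Lce1m negative in all 18 alternatives. This was not particular to them, since 18 members, these included, had no reversal in any fit run. The alternatives reuse the same libraries and are not independent of the main fit.

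**Figure D5:**
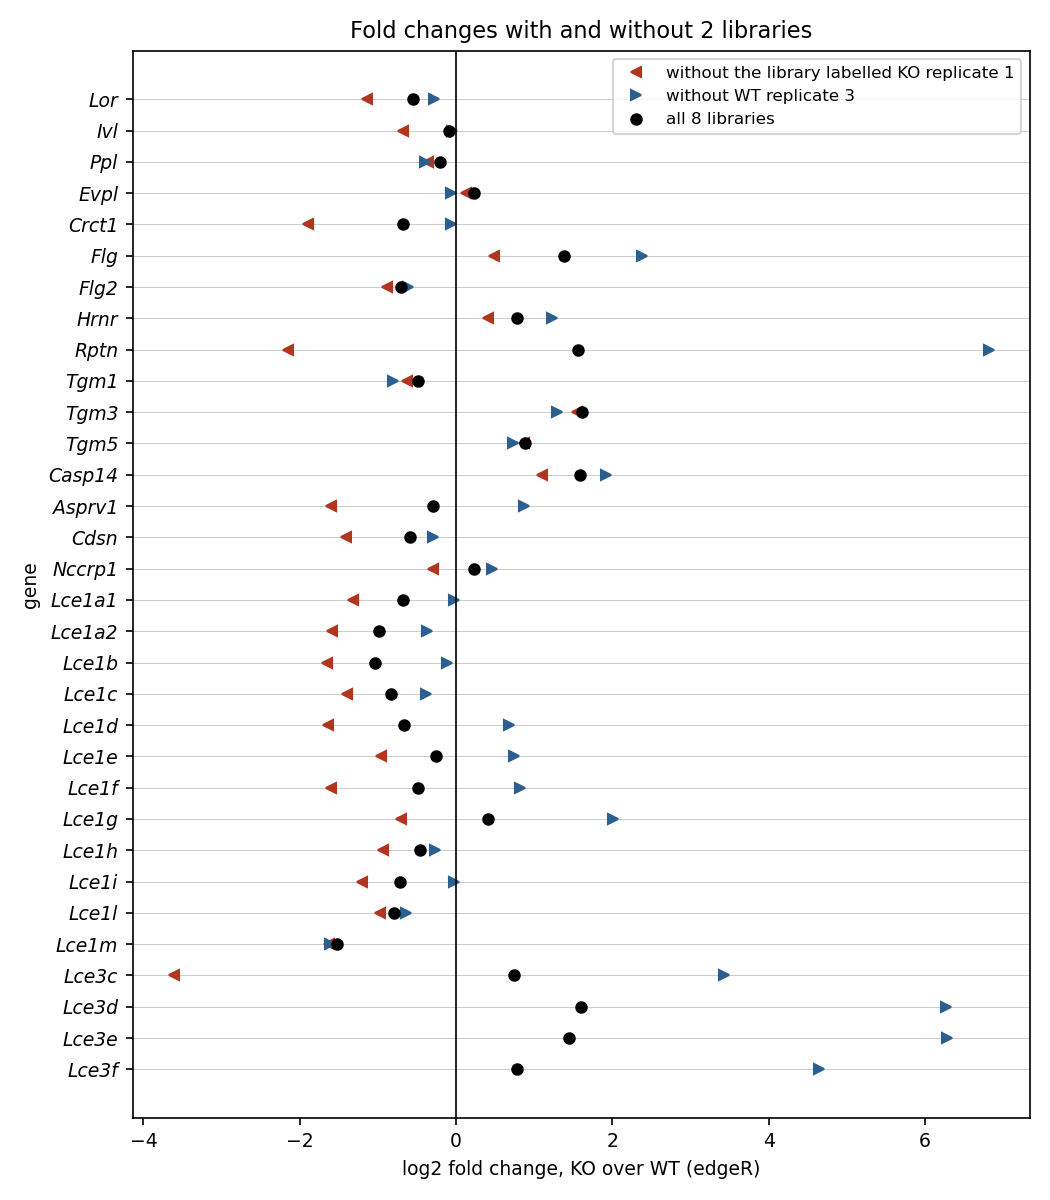
Log2 fold change of KO over WT from edgeR (x axis) for each tested gene (y axis) with all 8 libraries (circles), without the library labelled KO replicate 1 (left-pointing triangles) and without WT replicate 3 (right-pointing triangles); Lce3d, Lce3e and Lce3f could not be fitted without the first. Rptn moves between -2.15 and 6.82, and Tgm3, Tgm5 and Lce1m are among the genes that stay on their side of 0.

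Other genes of epidermal differentiation, taken from lists, had no calls in edgeR, and their counts are from the fit with library weights where named. Of 14 suprabasal keratin and desmosome genes, 8 had positive and 6 negative log2 fold changes (median 0.20). Krt1, an early suprabasal keratin, and Krt2, a late one, rose by 1.33 and 2.68 on the log2 scale (limma voom adjusted p = 0.0264 and 0.0456), and Krt80 fell by 0.80 (adjusted p = 0.0447). Krt2 averaged 34.5 ± 30.5 CPM in KO (SD, n = 5) and 4.39 ± 2.24 CPM in WT (n = 3), without overlap. Krt10, Dsp and Krt77, the most abundant, were at 0.49, -0.19 and -0.14 in edgeR. Of 13 other early differentiation genes, 6 were positive and 7 negative (median -0.04), led by Dmkn, Sbsn and Krtdap at -0.46, -0.53 and -0.30, with no calls in either fit. Of 10 tested genes of filaggrin processing and citrullination, 8 were positive (median 0.39), among them Hal at 0.35 and Blmh at 0.41, while St14 was at -0.23, and none was called.

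Among 20 transcription factors of keratinocyte differentiation, 11 were positive and 9 negative (median 0.01). Trp63, Klf4 and Gata3, the most abundant, were at 0.0049, 0.074 and -0.24. With library weights Barx2, Maf and Foxn1 rose by 1.09, 0.95 and 1.10 on the log2 scale (limma voom adjusted p = 0.0192, 0.0181 and 0.0373). Ovol1, Nfe2l2 and Hopx fell by 1.05, 0.75 and 0.95 (limma voom adjusted p = 0.0272, 0.0148 and 0.0161). Nfe2l2, for the regulator of antioxidant genes NRF2, averaged 118 ± 32.1 CPM in KO (SD, n = 5) and 188 ± 13.5 CPM in WT (n = 3), without overlap. Of 16 other genes of the chromosome 3 cluster, 5 were positive and 11 negative (median -0.17), led by Kprp, S100a11 and S100a14 at -0.59, -0.13 and -0.25, and Pglyrp3, for a peptidoglycan recognition protein, fell by 1.23 with library weights (limma voom adjusted p = 0.00558). Of 4 tested transglutaminases outside the list, 3 were positive, Tgm2 at 1.53 and Tgm4 at 0.75 among them. Tgm7 was at -1.12, and none was called. Tgm2 averaged 4.63 CPM in KO, or 1.40 CPM without KO replicate 2, against 1.57 CPM in WT. All 5 such genes counted summed to 6.12 to 46.0 CPM in KO, highest in KO replicate 2, and 10.2 to 35.4 CPM in WT.

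Markers of other cells were compared as sums, since the sample could hold them. Each sum covers every counted gene of its list, not only those in brackets. The genes in brackets, 3 or fewer, are the tested ones with the highest CPM. All 12 inner root sheath and hair shaft genes had positive log2 fold changes (median 1.67), with none called and 397 CPM in KO replicate 5 alone. Fibroblast genes (Col1a1, Col3a1, Col1a2) summed to 3.94 to 74.0 CPM in KO and 34.1 to 39.6 CPM in WT. Langerhans cell genes (Cd74, H2-Aa, Epcam) summed to 289 to 884 CPM in KO and 658 to 894 CPM in WT, all 5 were negative (median -0.60), and Cd207 fell by 1.18 with library weights (limma voom adjusted p = 0.0192). T cell genes (Thy1, Cd3e, Trdc) summed to 55.6 to 144 CPM in KO and 29.2 to 77.0 CPM in WT, all 5 with positive values (median 0.58). Sebocyte genes (Scd1, Soat1, Awat2) summed to 459 to 684 CPM in KO and 568 to 761 CPM in WT. Melanocyte genes (Pmel, Dct, Tyrp1) summed to 7.89 to 23.1 CPM in KO and 8.13 to 18.3 CPM in WT. Endothelial (Pecam1, Kdr, Cdh5), muscle (Myh4, Acta1, Tnnt3) and fat (Plin1, Fabp4) genes were highest in KO replicate 2, at 40.3, 25.4 and 15.5 CPM, against at most 8.83, 8.75 and 3.67 CPM in WT. Basal layer genes were positive in 4 and negative in 4 cases (median -0.05), with Krt5, Col17a1 and Krt14 at 0.13, 0.03 and 0.67 and none called. The part of these cells in the member values was not tested.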

How the data were processed

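The authors deposited 1 table of raw read counts per gene for each of the 8 libraries, without normalization. Tools named per the submitters' processing notes are Trimmomatic 0.36, STAR 2.5.2b, Subread 1.5.2 and featureCounts, with the builds GRCh38 and GRCm38. The deposited tables hold mouse genes. The sources used here give neither the strand setting nor how multi-mapped reads were counted, so reads of overlapping genes and near-identical copies cannot be told apart. Members were matched by symbol through a reference table of gene names.

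The test on counts was the robust quasi-likelihood test of edgeR 4.0.16 (R 4.3.3) over all genes, with TMM, filterByExpr, genotype as the 1 factor and a Benjamini-Hochberg adjusted p under 0.05. Alternatives were other scalings and filters, DESeq2 1.42.0, limma 3.58.1 voom with and without library weights, the ending of the library name, and libraries left out. The steps were tested on simulated data. The members, gene lists and tests were chosen with earlier results of these data known. Named with all values are the 2 most abundant members per role, that with the smallest p, and any called with library weights, besides Flg, Rptn, Tgm5 and Lce1l, which were chosen after their values were seen. In other lists, the 3 most abundant genes and those called are named. Replicates were numbered in order of deposition and pair nothing. No label says that each library is another animal, and p-values therefore reflect only how these samples vary, which may be technical. Total counts ranged from 5313552 to 18292303, and no counting intervals are given for single values.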

Additional observations from a re-analysis of the deposited data

Results flagged for a closer look

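In 11 of 35 genes examined (the 34 members and Tgfa), 1 of the 5 KO libraries lay far from the other 4, by Dixon's ratio of the gap to the range with a critical value of 0.71. For normally spread values, chance gives such a result in about 1 in 20 groups. The ratio was taken on CPM and not on the log scale, where a high value stands out less. That rate may therefore not hold here, and the number of flags is not set against it. In every case it was the library labelled KO replicate 1, and the value was the highest. Its CPM was 335.3 for Ivl against 132 in the next KO library, 926 for Crct1 against 219, 4093 for Asprv1 against 971 and 2643 for Cdsn against 945. Rptn was at 1499 CPM there and at 53.0 CPM in the next KO library. The Lce3 genes were at 2.285 (Lce3a), 31.4 (Lce3b), 213.1 (Lce3c), 117.3 (Lce3d), 49.16 (Lce3e) and 14.96 CPM (Lce3f), against 0.174, 0.521, 3.02, 1.39, 1.22 and 1.22 CPM in the next KO library. The same library had 132 CPM of Tgfa. These genes share a library, so the 11 results are not independent.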

How the results depend on the processing

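Of 564 member values under an alternative, 521 kept their direction and 43 did not, 17 of them with 1 library left out. The direction reversed at least once for 14 members and in no fit run for 18, of which Lce3d could not be fitted in the 4 that left out KO replicate 1 or 2. The number of genes called, 1 in edgeR with TMM, was 0 with RLE scaling, limma voom or libraries ending in br, 9 without a filter on low counts, 137 with DESeq2, 1243 with library weights, 1883 without KO replicates 1 and 2 and WT replicate 3, and 0 to 1 with 1 library left out. The number of members called, 0 in edgeR, was 2 with library weights (Tgm3, Lce1m) and 1 without those 3 libraries (Tgm1). The median log2 fold change of members ran from -0.97 to 0.21 with 1 library left out. With the label ending as a covariate, values turned to 0.42 (Ivl), 0.15 (Crct1), 0.56 (Asprv1), 0.24 (Lce1e) and 0.22 (Lce1f), and among libraries ending in br to 0.43, 0.21, 0.64, 0.30 and 0.31 for the same genes, 0.039 for Cdsn and 0.063 for Lce1d. Voom gave -0.15 for Nccrp1, -0.91 for Lce3c, -0.96 for Lce3e and -1.05 for Lce3f, and with weights -1.18, -1.48 and -1.60 for these Lce3 genes. Without the 3 libraries Lce1e was at 0.27, Lce1f at 0.0043 and Lce3c at -0.96. Without the library labelled KO replicate 1 and WT replicate 3, chosen after seeing the data, Evpl was at -0.18, Nccrp1 at -0.070, Lce1e at 0.035 and Lce3c at -0.92. With 1 library left out, ranges that crossed 0 were -0.68 to 0.070 (Ivl), -0.070 to 0.58 (Evpl), -2.15 to 6.82 (Rptn), -1.60 to 0.87 (Asprv1), -0.30 to 0.46 (Nccrp1), -1.64 to 0.68 (Lce1d), -1.002 to 0.74 (Lce1e), -1.60 to 0.81 (Lce1f), -0.70 to 2.01 (Lce1g), -3.62 to 3.43 (Lce3c) and -0.090 to 4.64 (Lce3f). The cause was not tested. No paired analysis was possible because replicate numbers come from the order of deposition. Depth limits the Lce3 genes most, with 18 to 83 counts for all 6 in 6 of the libraries.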
